A study of Mus musculus with 18 samples.

Results

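Collagen genes were followed in mouse heart across a cardiac-specific tumour necrosis factor alpha (TNF-alpha) transgene and across age. Members were the probe sets whose single gene symbol in the platform annotation has the form Col, a type number, the letter a and a chain number. The array holds 44 such probe sets for 31 genes, out of 8251 genes with a single symbol. For a gene with several probe sets the brightest on average stands for the gene, and the rest were kept as a check. By type, 8 genes are fibrillar, 8 belong to basement membranes and their zones (types IV, VII, XV and XVIII), and 15 are of other types.

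The study measured total RNA of mouse heart on Affymetrix U74Av2 arrays, to describe the transgenic heart at compensated hypertrophy and at dilated failure per the labels. FVB mice without the transgene gave 2 distinct female arrays and 3 male arrays, all at 3 weeks of age. TNF transgenic mice gave 3 female and 3 male arrays at 3 weeks, 3 male arrays at 13 weeks and 3 female arrays at 40 weeks. There were no FVB hearts of the later ages, and the later ages differ in sex, so age, sex and disease stage cannot be told apart between them. The promoter that drives the transgene is not given in the sources used here, and the labels do not say whether arrays of a group came from separate animals. P-values therefore measure the spread between these arrays, which may be partly technical.

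Collagens are proteins of 3 chains wound into a triple helix. In the heart, the fibrillar types I and III form the load-bearing weave between muscle cells, type V starts their fibrils, and type IV makes the sheet-like network under endothelium and around each cardiomyocyte. Type VI forms fine microfibrils between the basement membrane and the weave, while the fibril-associated types such as IX, XII and XIV sit on the surface of larger fibrils. Fibroblasts make most of the fibrillar collagen of the heart, and its deposition is known as fibrosis.

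The array labelled FVB female 1 and the column labelled FVB female 2 hold identical values and were counted as 1 array, called the outlying array here. Spearman correlations of this array with the rest lay between 0.775 and 0.856, whereas trimmed mean signals of all arrays lay within a ratio of 1.001. The Tnf probe set read 12.5 to 124.9 on the FVB arrays and 5476 to 11343 on the transgenic arrays of 3 weeks, as the labels have it. Against their labels, 2 of the 3 arrays labelled FVB male carried the female-specific transcript Xist, at 1381 (male 1) and 2706 (male 2). The Y-linked transcript Eif2s3y read 298.7, 67.4 and 544.9 on FVB males 1, 2 and 3, and 115.3 and 40.9 on the FVB female arrays. FVB male 1 thus carried transcripts of both sexes. The 3′ to 5′ ratio of the Actb control probe sets, which reads RNA integrity, averaged 1.71 ± 0.26 (SD, n = 5) on FVB arrays. On transgenic arrays of the same age it averaged 1.27 ± 0.10 (SD, n = 6), and a two-sided exact permutation test gave p = 0.0043. The part of this RNA difference in the results was not tested. Collagen results at 3 weeks are given with and without the outlying array.

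At 3 weeks, type VI and type XIV collagen transcripts were higher in transgenic hearts over both sexes, and type VIII was lower. In males alone no fibrillar gene was called, and of the type VI chains only Col6a3 was called. Of the 31 genes, 20 were bright enough to be tested and 12 of them were called by limma at an adjusted p under 0.05, 9 higher and 3 lower. Over all 7453 probe sets tested the called share was 46.6%, with 24.7% higher and 21.9% lower, so calls are common in this comparison. The median difference of the 20 genes was 0.37 on the log2 scale, against -0.0065 over all probe sets. Without the outlying array 6 genes were called higher and 2 lower, against 22.1% and 18.9% of all probe sets, with a median of 0.16 against -0.036. Transgenic and FVB arrays did not overlap for Col14a1 and Col6a3 (higher) and Col8a1 (lower), against 14.5% and 9.14% of probe sets in these directions. In RNA of whole hearts, fewer cells of a type and less RNA per cell cannot be told apart.

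By class, 2 of 5 tested fibrillar genes were called higher and none lower, with a median log2 difference of 0.53. Without the outlying array 1 of the 5 was higher, none was lower and the median was 0.18. The shares over all probe sets were 24.7% higher and 21.9% lower, and 22.1% and 18.9% without that array. Of 6 basement membrane genes 3 were called higher, with a median of 0.34. Without the outlying array 1 of the 6 was higher, 1 was lower and the median was 0.28. Of the 9 tested genes of other types, 4 were higher and 3 lower, with a median of -0.40. The same class had 4 higher, 1 lower and a median of -0.19 without the outlying array.

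**Figure D1:**
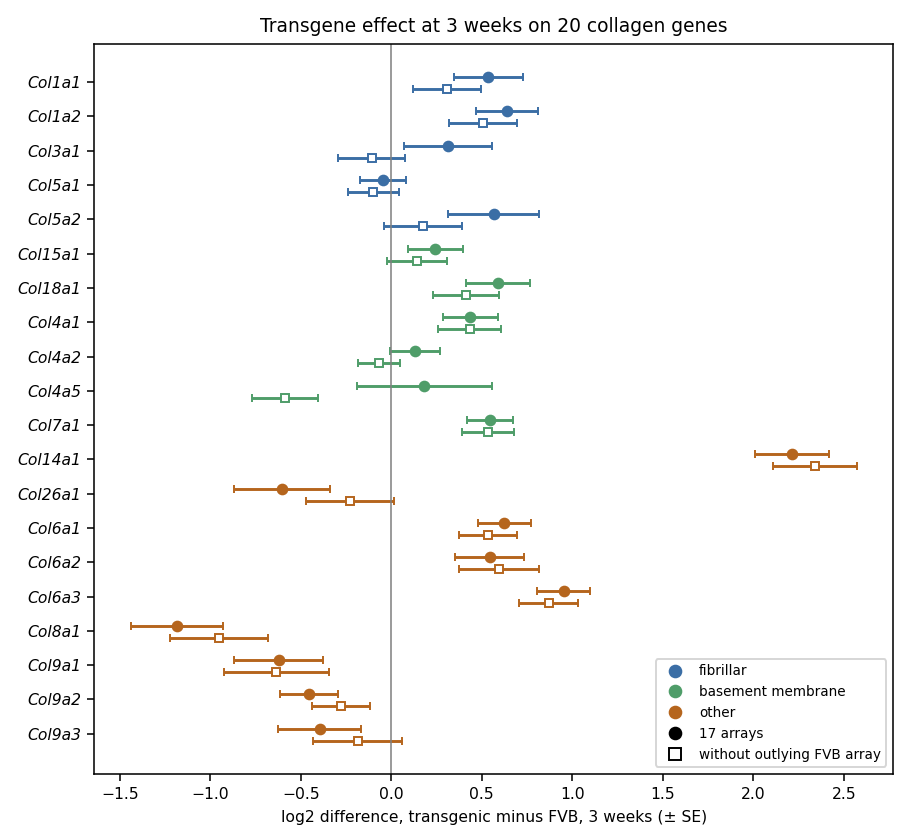
Log2 difference between transgenic and FVB hearts at 3 weeks (x axis, mean of the female and male difference, bars show the SE of the limma fit) for the 20 tested collagen genes, with filled circles for all 17 arrays and open squares without the outlying FVB array. Col14a1 stands at 2.22, Col6a3 at 0.95 and Col8a1 at -1.19, while Col3a1 moves from 0.31 to -0.11 and Col4a5 from 0.18 to -0.59 when that array is left out.

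Col14a1 encodes the chain of type XIV collagen, a fibril-associated collagen found with type I fibrils. Its signal was 304.4 and 214.1 on the FVB female arrays and 291.1, 326.3 and 214.5 on the FVB male arrays. It was 1322, 1045 and 1006 on the transgenic female arrays and 1175, 1473 and 1415 on the transgenic male arrays of 3 weeks. Every transgenic array of this age lay above every FVB array. FVB arrays averaged 270.1 ± 52.4 (SD, n = 5) and transgenic arrays 1239 ± 194 (SD, n = 6), and limma gave a 4.64-fold rise (log2 2.22, SE 0.21, adjusted p = 3.7e-07). The difference was 2.13 in females and 2.30 in males, and 2.34 over both sexes without the outlying array. Col14a1 kept its call in all 30 alternative settings, with log2 differences from 2.02 to 2.52.

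All 3 chains of type VI collagen rose. This collagen is built from heterotrimers of the chains that Col6a1, Col6a2 and Col6a3 encode, and Col6a2 and Col6a1 are neighbours on chromosome 10. Col6a3 read 1146 and 1441 on the FVB female and 1946, 2098 and 1269 on the FVB male arrays. In transgenic hearts of 3 weeks Col6a3 read 3207, 2611 and 2541 in females and 3024, 2768 and 3238 in males. The lowest transgenic array lay above the highest FVB array. Col6a3 rose 1.93-fold (log2 0.95, SE 0.15, limma adjusted p = 8.5e-05), and by 0.87 without the outlying array.

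Col6a1 read 1974 and 2537 on the FVB female, 3308, 3634 and 2575 on the FVB male, 4115, 4044 and 3833 on the transgenic female and 3558, 3673 and 5600.4 on the transgenic male arrays of 3 weeks. The single overlap was the FVB male array at 3634 against the transgenic male array at 3558. The rise was 0.62 (SE 0.15, limma adjusted p = 0.0027), and 0.53 (adjusted p = 0.015) without the outlying array. In males alone Col6a1 stood at 0.41 (limma adjusted p = 0.129). The other tested Col6a1 probe set, 162459_f_at, rose by 1.03 over both sexes (SE 0.21, limma adjusted p = 0.0010) and its groups did not overlap.

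Col6a2 was the least firm of the type VI chains. It read 1896 and 1629.5 on the FVB female and 2313, 3179.5 and 1415 on the FVB male arrays, against 3077, 3706 and 2719 on the transgenic female and 2217, 2266 and 3469.9 on the transgenic male arrays. The transgenic females lay above both FVB females, as for 2012 of all 7453 probe sets, while the males of the genotypes overlapped. The rise of 0.54 (SE 0.19, limma adjusted p = 0.030) was lost on leaving out any of 4 arrays (FVB female 3, FVB male 3, transgenic female 2 or transgenic male 3), at 0.39 to 0.49 with adjusted p of 0.066 to 0.077. It was 0.60 (adjusted p = 0.042) without the outlying array. Col6a1 and Col6a3 kept their calls in all 30 alternative settings.

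Because the type VI genes moved in the same direction and Col8a1 in the other, their proximal promoters are shown, as the 250 bases before the RefSeq start in build GRCm38.p6, all on the minus strand. Of the 31 members 22 have an entry in the promoter table, and there is none for Col14a1 or Col1a1. Capitals mark matches on either strand to the NF-kB consensus, the AP-1 motif TGANTCA and the GC box GGGCGG. The windows are chr10:76726045-76726294 for Col6a1, chr10:76623631-76623880 for Col6a2, chr1:90843972-90844221 for Col6a3 and chr16:57754738-57754987 for Col8a1.
Col6a1: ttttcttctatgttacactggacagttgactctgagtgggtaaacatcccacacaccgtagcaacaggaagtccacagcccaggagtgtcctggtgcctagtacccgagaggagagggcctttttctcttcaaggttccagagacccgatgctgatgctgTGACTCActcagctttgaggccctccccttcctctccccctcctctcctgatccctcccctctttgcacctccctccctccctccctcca
Col6a2: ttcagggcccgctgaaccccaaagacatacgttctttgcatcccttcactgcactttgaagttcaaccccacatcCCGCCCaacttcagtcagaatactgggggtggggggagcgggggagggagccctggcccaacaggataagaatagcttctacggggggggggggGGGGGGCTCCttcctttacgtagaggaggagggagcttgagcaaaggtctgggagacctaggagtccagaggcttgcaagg
Col6a3: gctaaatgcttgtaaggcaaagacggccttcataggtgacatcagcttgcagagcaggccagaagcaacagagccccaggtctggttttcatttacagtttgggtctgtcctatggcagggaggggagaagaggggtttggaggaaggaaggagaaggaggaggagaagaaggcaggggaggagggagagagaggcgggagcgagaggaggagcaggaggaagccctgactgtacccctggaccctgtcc
Col8a1: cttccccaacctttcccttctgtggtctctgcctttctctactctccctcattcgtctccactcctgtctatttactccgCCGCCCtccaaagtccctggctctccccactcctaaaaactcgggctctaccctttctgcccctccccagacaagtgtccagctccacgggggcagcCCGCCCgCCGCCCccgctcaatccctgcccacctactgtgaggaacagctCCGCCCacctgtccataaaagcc
The Col6a1 window holds an AP-1 match 90 to 84 bases before the start. The Col6a2 window holds a match to the NF-kB consensus 81 to 72 bases and a GC box 175 to 170 bases before the start. The Col6a3 window holds no match to the motifs searched. The Col8a1 window holds 4 GC boxes, at 170 to 165, 73 to 68, 66 to 61 and 23 to 18 bases before the start. No CCAAT and no TATAAA was found in these 4 windows, and no marked matches overlap. Among the 250-base windows of 32851 RefSeq promoters, 7.3% hold the NF-kB consensus, 6.7% the AP-1 motif, 32.7% the GC box, 33.8% CCAAT and 12.4% TATAAA on either strand. These matches describe letters only, and the motifs differ among the 3 type VI genes.

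Col8a1, a short-chain network collagen of vessel walls and endothelium, was the tested member furthest below 0. It read 654.8 and 342.8 on the FVB female and 457.9, 365.6 and 281.9 on the FVB male arrays. It read 199.1, 253.5 and 171.7 on the transgenic female and 105.9, 200.9 and 196.8 on the transgenic male arrays of 3 weeks. All transgenic arrays lay below all FVB arrays, and the outlying array was the highest of the FVB arrays. Col8a1 fell by 1.19 (SE 0.25, limma adjusted p = 0.0014), and by 0.95 without the outlying array (adjusted p = 0.012). Without the outlying array and the FVB male arrays that carried Xist, it stood at -0.77 (adjusted p = 0.075). Of 4 tested smooth muscle markers 3 were also lower at 3 weeks (1 without the outlying array), and of 8 endothelial markers 3 were lower and 1 higher (2 and 0 without it), against 21.9% of all probe sets lower and 24.7% higher. Their part in the Col8a1 result was not tested.

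Col7a1 encodes type VII collagen, which forms anchoring fibrils beneath the epidermis. It read 374.6 and 385.1 on the FVB female, 234.0, 248.5 and 251.8 on the FVB male, 424.1, 372.6 and 449.0 on the transgenic female and 522.7, 422.2 and 493.0 on the transgenic male arrays of 3 weeks. The male arrays of the genotypes were apart, as for 24.9% of all probe sets in this direction, while the female arrays overlapped. Col7a1 rose by 0.54 over both sexes (SE 0.13, limma adjusted p = 0.0024), and by 0.53 (adjusted p = 0.0072) without the outlying array. The call was kept in all 30 alternative settings. The markers of skin and epithelium gave 0 calls among 2 tested.

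**Figure D2:**
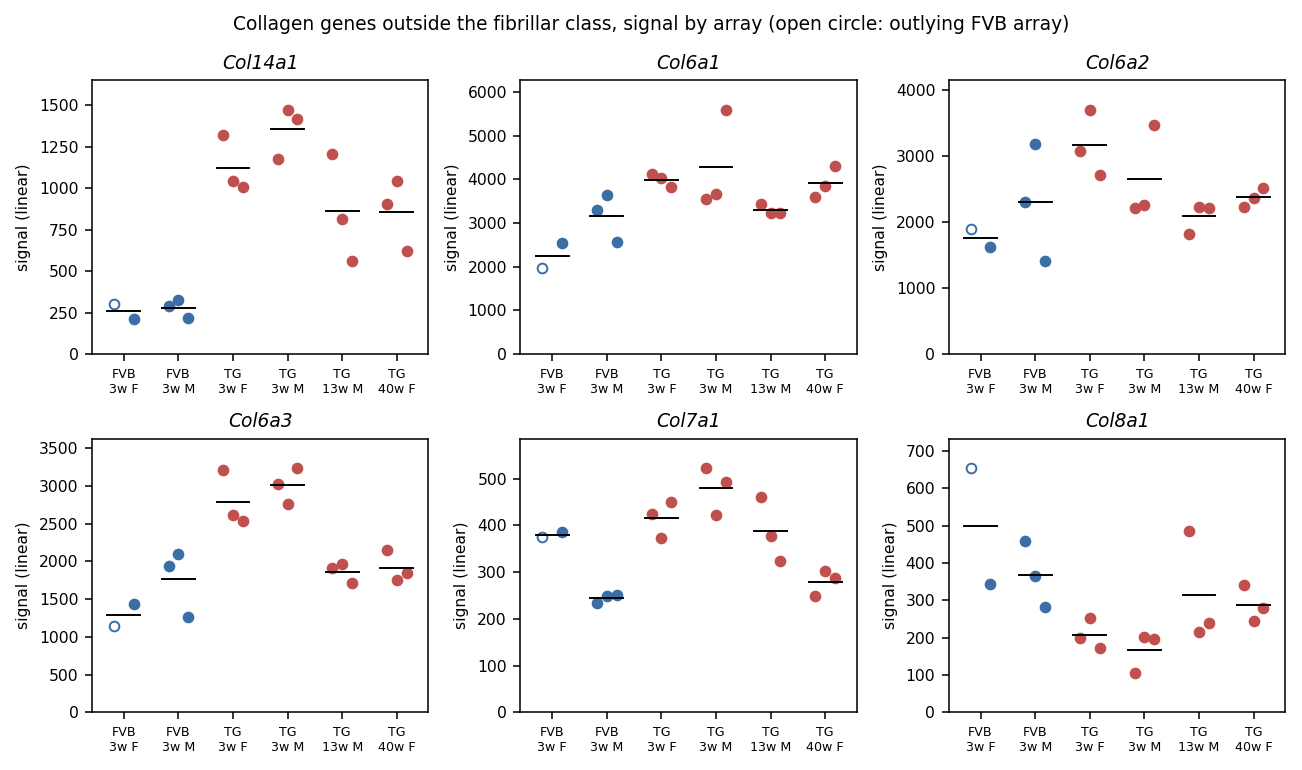
Linear signal (y axis) of Col14a1, the type VI chains, Col7a1 and Col8a1 on each array by group (x axis, F female, M male, w weeks), with horizontal bars at the group mean and an open circle for the outlying FVB array. Transgenic arrays of 3 weeks lie above all FVB arrays for Col14a1 and Col6a3 and below them for Col8a1.

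Among the fibrillar genes at 3 weeks the type I chains were called higher and those of types III and V were not. Col1a1, which encodes the main chain of type I collagen, read 2192 and 4095 on the FVB female arrays and 7152, 7326 and 5599.7 on the FVB male arrays. It read 5997, 8339.7 and 6706 on the transgenic female and 6416, 5893 and 5756 on the transgenic male arrays. FVB males 1 and 2 lay within the transgenic range, while FVB male 3 and both FVB females lay below it. Col1a1 rose by 0.53 (SE 0.19, limma adjusted p = 0.031) over both sexes, but stood at 0.31 (adjusted p = 0.204) without the outlying array and at -0.14 (adjusted p = 0.716) in males alone. The call was also lost on leaving out FVB male 3, transgenic female 2 or transgenic male 1. Its other tested probe set, 103709_at, stood at 0.08 (adjusted p = 0.837).

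Col1a2, the partner chain of type I collagen, read 1373 and 1987 on the FVB female, 3182, 3120.0 and 2927 on the FVB male, 2966, 2948 and 3433 on the transgenic female and 3862, 4571 and 3535 on the transgenic male arrays. Within each sex the transgenic arrays lay above the FVB arrays, and only across sexes did they overlap. Of all 7453 probe sets, 2012 lay apart in this direction in females and 1858 in males. The rise of 0.64 (SE 0.17, limma adjusted p = 0.0068) stayed called without the outlying array at 0.51 (adjusted p = 0.042), and stood at 0.54 (adjusted p = 0.086) without the 3 doubted FVB arrays. In males alone Col1a2 was not called, at 0.37 (limma adjusted p = 0.259). A second Col1a2 probe set, 161156_r_at, read against the first. It gave 5421 and 1891 on the FVB female and 2381, 1408 and 1705 on the FVB male arrays, against 882.0 to 1402 on the 6 transgenic arrays of 3 weeks. This probe set fell by 1.08 (SE 0.26, adjusted p = 0.0029), so the mean over both Col1a2 probe sets was -0.22 (adjusted p = 0.247). The suffix of its name marks a set for which some of the maker's probe selection rules were dropped. Other probe sets named here also carry a suffix, such as 162459_f_at (Col6a1), 161984_f_at (Col3a1) and 101882_s_at (Col18a1). The part of any suffix in the results was not tested.

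Col3a1 encodes the chain of type III collagen, the more compliant fibre of the heart. It read 1633 and 5231 on the FVB female and 5801, 6166 and 5076 on the FVB male arrays. It read 5650.2, 5507 and 4549.8 on the transgenic female and 4077, 6313 and 4566 on the transgenic male arrays. Apart from the outlying array, the FVB arrays lay within the transgenic range. The difference was 0.31 (SE 0.24, limma adjusted p = 0.306), and -0.11 without the outlying array. The dimmest Col3a1 probe set, 102990_at, rose by 1.15 (SE 0.25, adjusted p = 0.0016), while 161984_f_at stood at -0.17 (adjusted p = 0.476).

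The type V chains, which set fibril diameter, gave no call. Col5a1 ran from 1033 to 1441 on the FVB arrays and from 989.6 to 1342 on the transgenic arrays of 3 weeks, at -0.05 (SE 0.13, limma adjusted p = 0.790) and -0.10 without the outlying array. Its second probe set stood at 0.02. Col5a2 stood at 0.57 (SE 0.25, adjusted p = 0.075), and at 0.18 without the outlying array, on which it read 449.5 against 1332 to 1809 on the other FVB arrays. The outlying array was the lowest of all 17 arrays for 4 of the 5 tested fibrillar genes.

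**Figure D3:**
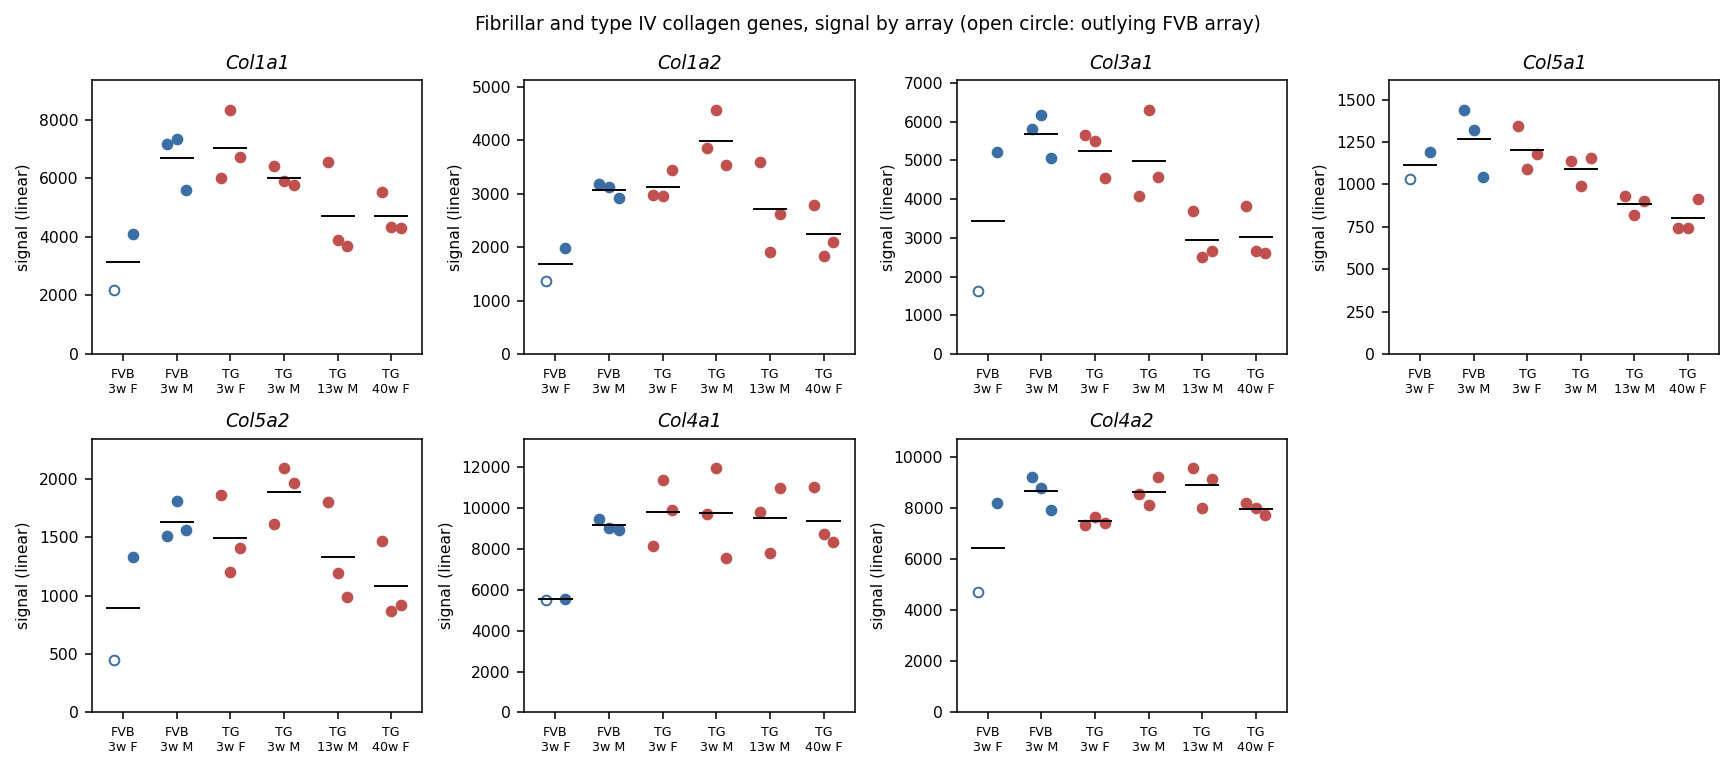
Linear signal (y axis) of the 5 tested fibrillar genes and of Col4a1 and Col4a2 on each array by group (x axis, F female, M male, w weeks), with horizontal bars at the group mean and an open circle for the outlying FVB array. The FVB female arrays are low for Col1a1, Col1a2 and Col4a1, and Col3a1 is at 1633 on the outlying array against 5076 to 6166 on the other FVB arrays.

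**Figure D4:**
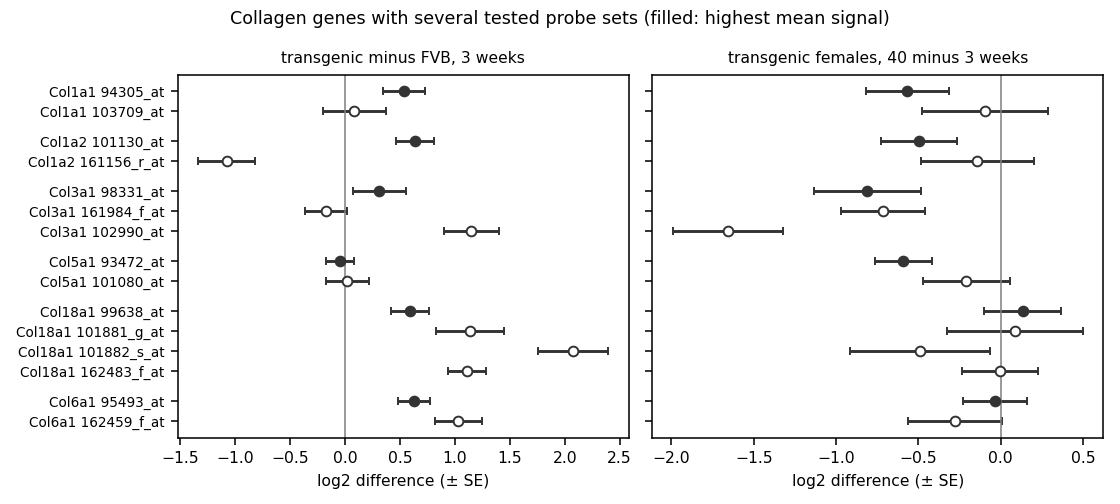
Log2 difference (x axis, bars show the SE of the limma fit) of each tested probe set of the 6 collagen genes with several tested probe sets, for transgenic minus FVB at 3 weeks (left) and transgenic females of 40 minus 3 weeks (right), with the brightest probe set filled. At 3 weeks the probe sets of Col1a2 stand at 0.64 and -1.08, and those of Col3a1 range from -0.17 to 1.15.

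The basement membrane genes differed by chain. Col4a1 and Col4a2 encode the chains of the common type IV network and lie head to head, with starts 21 bases apart. Col4a1 read 5516 and 5576 on the FVB female, 9494, 9049 and 8939 on the FVB male, 8142, 11365 and 9912 on the transgenic female and 9699.7, 11969.9 and 7563 on the transgenic male arrays. The FVB females lay below every other 3-week array, and the FVB males lay within the transgenic range. Col4a1 rose by 0.44 (SE 0.15, limma adjusted p = 0.027), stood at 0.43 (adjusted p = 0.057) without the outlying array, and stood at 0.06 in males alone. The call was also lost without transgenic female 2 or transgenic male 2. Col4a2 read 4712 and 8221 on the FVB female, 9247, 8799 and 7957 on the FVB male, 7351, 7685 and 7439.9 on the transgenic female and 8586, 8152 and 9239.5 on the transgenic male arrays. Outside the outlying array its FVB and transgenic values interleaved, and its difference was 0.13 (SE 0.14, adjusted p = 0.449), and -0.067 without that array.

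Col4a5, a chain of the network best known from the kidney filter, stood at 0.18 (SE 0.37, limma adjusted p = 0.714) and turned with 1 array. It read 58.2 on the outlying array, 493.8 on the other FVB female, 351.3, 287.2 and 293.6 on the FVB males and 184.3 to 389.4 on the transgenic arrays of 3 weeks. Without the outlying array it was called lower at -0.59 (adjusted p = 0.019), resting on a single FVB female.

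Col18a1, whose product is the source of endostatin, read 309.0 and 500.4 on the FVB female and 918.9, 806.5 and 557.1 on the FVB male arrays. It read 732.0, 784.3 and 813.3 on the transgenic female and 981.0, 671.2 and 947.1 on the transgenic male arrays. The female arrays of the genotypes were apart, as for 2012 of all 7453 probe sets in this direction, and the male arrays overlapped. Col18a1 rose by 0.59 (SE 0.18, limma adjusted p = 0.012), and stood at 0.42 (adjusted p = 0.081) without the outlying array. All 3 other tested Col18a1 probe sets were called higher too, and 2 of them without the outlying array. Of these, 101882_s_at read 126.3, 33.6, 52.1, 76.8 and 42.3 on the FVB arrays and 184.3 to 421.0 on the transgenic arrays of 3 weeks. It rose by 2.08 (SE 0.32, limma adjusted p = 7.8e-05), and by 2.52 without the outlying array, which read highest among the FVB arrays. On 2 of the 5 FVB arrays it lay under the floor of 44.675 set on dim signals, so the size of this difference depends on the floor. Col15a1, the related chain of type XV collagen, stood at 0.24 (SE 0.15, adjusted p = 0.205), and at 0.14 without the outlying array.

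Type IX collagen coats type II fibrils of cartilage. Over the 17 arrays its transcripts had mean signals of 243.2 (Col9a1), 327.5 (Col9a2) and 189.8 (Col9a3). Col9a1 read 363.0 and 375.6 on the FVB female, 339.2, 175.0 and 362.7 on the FVB male, 172.0, 233.4 and 205.0 on the transgenic female and 260.0, 129.5 and 294.6 on the transgenic male arrays. Only FVB male 2 lay within the transgenic range. The fall of 0.62 (SE 0.25, limma adjusted p = 0.048) was lost on leaving out any of 12 of the 17 arrays. The outlying array was among the 12 (-0.63, adjusted p = 0.092). Arrays of 13 and 40 weeks, which are not in the groups compared, were among the 12 too. Col9a2 read 563.7 and 344.4 on the FVB female, 385.5, 292.9 and 364.8 on the FVB male and 265.2 to 314.4 on the 6 transgenic arrays. FVB male 2 again lay within the transgenic range. Col9a2 fell by 0.46 (SE 0.16, adjusted p = 0.029), a call lost on leaving out any of 6 arrays, the outlying array among them (-0.28). Col9a3 stood at -0.40 (adjusted p = 0.171), and at -0.19 without that array. Col26a1 stood at -0.60 (adjusted p = 0.071), and at -0.23 without the outlying array.

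The 11 members too dim to test were Col2a1, Col11a1 and Col11a2 among the fibrillar, Col4a3 and Col4a4 among the basement membrane, and Col10a1, Col12a1, Col13a1, Col17a1, Col19a1 and Col22a1 among the other types. Col22a1 lay under the floor on all 17 arrays, and Col4a3 and Col4a4 on 16 of 17. The highest signal of any of the 11 was 153.3 once the outlying array was set aside. On that array 8 of the 11 had their highest value of all arrays. Of 6 cartilage and bone markers on the array, Chad was the single one bright enough to test. It fell by 0.76, and stood at -0.52 (limma adjusted p = 0.056) without the outlying array. The markers Matn1, Matn3 and Hapln1 were under the floor on each of the 6 transgenic arrays at 3 weeks. The summed signal of the 6 markers was 331.7 to 1407 in FVB and 159.8 to 339.2 in transgenic hearts of 3 weeks, and was at most 453.8 in FVB without the outlying array. The part of such cells in the type IX result was not tested.

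The sexes, taken apart, gave different counts, and the fit of all arrays called no difference between them. In females 9 of 20 collagen genes were called higher and 4 lower, against 34.7% of all probe sets called. Col15a1, Col26a1 and Col9a3 were among them, though not called over both sexes. Col15a1 read 1353 and 1789.5 on the FVB female and 2480, 2555 and 2498 on the transgenic female arrays, a rise of 0.69 (SE 0.23, limma adjusted p = 0.029). Its FVB males 1, 2 and 3 read 2885, 2901 and 1774. Males 1 and 2, the arrays that carried Xist against their label, thus lay above every transgenic female. Col26a1 read 478.2 and 168.5 on the FVB female and 104.2, 146.9 and 123.7 on the transgenic female arrays, and fell by 1.198 (SE 0.39, adjusted p = 0.028). Col9a3 read 401.1 and 224.2 against 130.1, 220.7 and 105.7, and fell by 1.05 (SE 0.34, adjusted p = 0.028). For these genes the female groups did not overlap. Of all 7453 probe sets, 2012 lay apart in the higher and 1936 in the lower direction between the same groups. A gap of this kind is thus common in this comparison. Without the outlying array these 3 genes stood at 0.49, -0.45 and -0.63. Without the outlying array, which leaves 1 FVB female assumed to vary like the other groups, only Col14a1 and Col6a3 were called higher and Col4a5 lower, against 19.6% of all. In males Col14a1 (2.30), Col7a1 (0.96) and Col6a3 (0.80) were called higher and Col8a1 (-1.16) lower, against 29.7% of all. No fibrillar gene was called in males, where the class median was -0.14. Without the 3 doubted FVB arrays the male comparison rests on 1 FVB male, and Col14a1 (2.65), Col6a3 (1.24), Col7a1 (0.92) and Col6a2 (0.87) were called, against 24.7% of all. Col8a1 then stood at -0.81 (adjusted p = 0.223).

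The test of the female minus the male difference called 0 collagen genes and 0.00% of all 7453 probe sets by limma. At an unadjusted p under 0.05 it gave 8 collagen genes and 1228 probe sets. Without FVB female 3, which leaves the outlying array as the single FVB female, it called 8 collagen genes, 6 with a higher and 2 with a lower transgene difference in females than in males, against 9.71% and 10.3% of all probe sets. Col1a1 had a female minus male difference of 1.36 (SE 0.38, adjusted p = 0.152), and 0.91 without the outlying array. Col7a1 had -0.84 (SE 0.25, adjusted p = 0.168), with 0.12 in females and 0.96 in males. As 2 of the 3 arrays labelled FVB male carried Xist, the sex labels of the controls are themselves in doubt.

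Between ages of the transgenic hearts no collagen gene was called by its representative probe set, and the differences of the 5 tested fibrillar genes were all below 0. The age comparisons use the same transgenic arrays of 3 weeks as the transgene comparison, so the differences are not independent of it. Limma called 0 of 20 collagen genes between males of 13 and 3 weeks, against 0.523% of all probe sets, and 0 of 20 between females of 40 and 3 weeks, against 0.671%. At an unadjusted p under 0.05 there were 5 collagen genes (642 probe sets) at 13 weeks and 6 (678 probe sets) at 40 weeks. The fibrillar genes had medians of -0.55 at 13 weeks and -0.57 at 40 weeks, while 50.6% and 48.7% of all probe sets were below 0. The basement membrane genes had medians of -0.0044 and 0.0033, and the genes of other types -0.32 and -0.12. The difference between the age changes gave 0 calls among collagen genes, with 0 of them and 214 probe sets at an unadjusted p under 0.05.

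At 13 weeks the arrays of 4 of 20 collagen genes lay wholly below those of 3-week males (Col3a1, Col5a1, Col6a1 and Col6a3), against 8.22% of probe sets. Col3a1 read 3697, 2504 and 2669 at 13 weeks against 4077, 6313 and 4566 in 3-week males, a difference of -0.75 (SE 0.32, limma adjusted p = 0.523). Col1a1 read 6558, 3902 and 3684 at 13 weeks, where 1 array stayed above all 3-week males, and its difference was -0.40 (adjusted p = 0.774). Col1a2 read 3596, 1909 and 2612 at 13 weeks, with the highest array inside the 3-week range, at -0.60 (adjusted p = 0.406).

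Col6a3 read 1917, 1963 and 1711 at 13 weeks, below all 3-week transgenic males, at -0.69 (SE 0.20, adjusted p = 0.171). Col14a1 read 1207, 816.4 and 560.7, and 1 of these arrays lay above the lowest 3-week male, at -0.72 (adjusted p = 0.402). Col8a1 was the single gene whose arrays lay wholly above those of 3-week males, against 7.55% of probe sets. It read 486.6, 216.1 and 238.8, a difference of 0.86 (SE 0.34, adjusted p = 0.428), with 1 array far above the other two.

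At 40 weeks the arrays of 7 of 20 collagen genes lay wholly below those of 3-week females (Col1a1, Col1a2, Col3a1, Col5a1, Col6a2, Col6a3 and Col7a1), against 7.55% of probe sets. Col1a1 read 5539.6, 4322 and 4316 at 40 weeks against 5997, 8339.7 and 6706 in 3-week females, a difference of -0.57 (SE 0.25, limma adjusted p = 0.519). Col1a2 read 2794, 1832 and 2097, at -0.49 (adjusted p = 0.540). Col3a1 read 3815, 2649 and 2602, at -0.81 (SE 0.32, adjusted p = 0.427). Each of these genes had the array of transgenic female 1 as its highest at 40 weeks.

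Col5a1 read 745.1, 742.0 and 912.6 at 40 weeks against 1342, 1090.4 and 1178 in 3-week females, at -0.59 (SE 0.17, limma adjusted p = 0.187). Col7a1 read 248.0, 302.2 and 288.5, at -0.57 (SE 0.17, adjusted p = 0.194). Both genes were lower on all 3 arrays of 40 weeks than on any 3-week female array. Col6a3 read 2148, 1758 and 1846, at -0.54 (adjusted p = 0.359). Col4a2 was the single gene whose arrays lay wholly above those of 3-week females, at 8199, 8015 and 7747 and a difference of 0.09, against 9.49% of probe sets.

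The other probe sets of the fibrillar genes were all below 0 at 40 weeks but differed in size, and at 13 weeks the second Col1a2 probe set stood at 0.14 (limma adjusted p = 0.981) against -0.60 for the first. The Col3a1 probe set 102990_at read 335.3, 202.1 and 182.2 at 40 weeks against 937.2, 642.3 and 641.8 in 3-week females. It fell by 1.66 (SE 0.34, limma adjusted p = 0.028), and at 13 weeks it stood at -1.27 (adjusted p = 0.133). The third Col3a1 probe set stood at -0.71 at 40 weeks. The second probe sets of Col1a1, Col1a2 and Col5a1 stood at -0.09, -0.14 and -0.21. When arrays were weighted by how well they fit, 7 collagen genes were called lower at 40 weeks, against 5.25% of all probe sets. They were Col3a1 (-0.88), Col1a2 (-0.74), Col5a2 (-0.68), Col5a1 (-0.67), Col1a1 (-0.63), Col6a3 (-0.60) and Col7a1 (-0.52). The Actb 3′ to 5′ ratio was 1.33 ± 0.10 (SD, n = 3) in 3-week and 1.58 ± 0.19 (SD, n = 3) in 40-week transgenic females. The Gapdh ratio was 1.03 ± 0.10 (SD, n = 3) and 1.21 ± 0.29 (SD, n = 3) in these groups. The part of these ratios in the age differences was not tested.

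**Figure D5:**
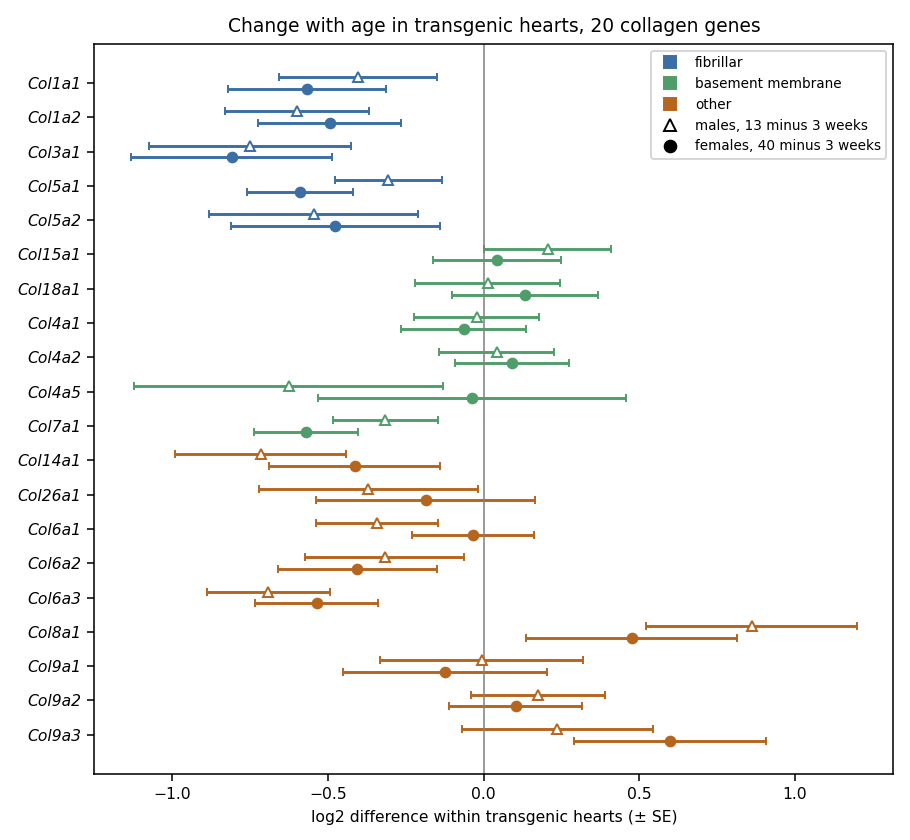
Log2 difference within transgenic hearts (x axis, bars show the SE of the limma fit) for the 20 tested collagen genes, with open triangles for males of 13 minus 3 weeks and filled circles for females of 40 minus 3 weeks. All 5 fibrillar genes lie below 0 at both ages, and no gene shown was called.

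Genes that make, bind or sense collagen were counted from lists chosen with earlier results of these data known. Of 34 genes for collagen processing, 18 were tested at 3 weeks, and 5 were higher and 4 lower (5 and 1 without the outlying array). With all arrays 24.7% of all probe sets were higher and 21.9% lower, shares close to those of this list. Without the outlying array the lower share of the list fell below that of all probe sets. Colgalt1, which adds galactose to collagen hydroxylysine, rose by 1.41 (SE 0.21, limma adjusted p = 6.0e-05), and P3h3, a prolyl 3-hydroxylase family member, rose by 0.65 (adjusted p = 0.0027). P4ha2, a catalytic subunit of prolyl 4-hydroxylase, fell by 0.52 (adjusted p = 0.0027). Creb3l1, a transcription factor of collagen secretion, fell by 0.72 (adjusted p = 0.0082), and stood at -0.46 (adjusted p = 0.067) without the outlying array. The median of the list was 0.18, and 0.0011 without that array.

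Of 17 genes for proteins that bind collagen or its neighbours, 12 were tested and 4 were higher and 4 lower, with or without the outlying array. The shares over all probe sets were 24.7% and 21.9%, and 22.1% and 18.9% without that array. Bgn (biglycan) and Nid2 (nidogen 2, which links basement membrane networks) rose by 0.94 and 1.56, with limma adjusted p of 9.7e-05 and 7.2e-05. Dcn (decorin, which coats type I fibrils) and Ogn (osteoglycin) fell by 0.55 and 1.15, with adjusted p of 0.0066 and 3.3e-05. Of 11 genes for collagen receptors 5 were tested, and Cd36, a scavenger receptor that binds collagen and takes up fatty acids, fell by 1.31 (SE 0.20, adjusted p = 8.4e-05). None of these 3 lists had a call at 13 or 40 weeks. At an unadjusted p under 0.05, Pcolce, an enhancer of procollagen cleavage, stood at -0.59 (limma adjusted p = 0.161), Lum (lumican) at -0.59 (adjusted p = 0.217), Thbs2 at -0.59 (adjusted p = 0.551) and Cd36 at 1.002 (adjusted p = 0.135) at 13 weeks. At 40 weeks Bgn stood at 0.55 (adjusted p = 0.344) and Ddr1, a receptor tyrosine kinase for collagen, at -0.50 (adjusted p = 0.258).

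Markers of the cells that make collagen moved in both directions at 3 weeks, where 24.7% of all probe sets were higher and 21.9% lower. Of 11 tested fibroblast markers 3 were higher and 4 lower, with a median log2 difference of -0.27. The summed signal of 12 ran from 22226 to 30577 in FVB and from 11223 to 15506 in transgenic hearts. The brightest markers weigh most in such a sum, so it does not give the change of a typical marker. Of 6 tested markers of activated fibroblasts 5 were higher and none lower. Their summed signal over 7 genes ran from 5951 to 8429 in FVB and from 14645 to 17926 in transgenic hearts. Tnc rose by 1.64, Postn by 1.50 and Acta2, which smooth muscle also expresses, by 1.19. Of the macrophage markers 7 of 8 were higher, all 9 cardiomyocyte markers were lower, and 3 of 4 skeletal muscle markers were lower but 0 without the outlying array. Markers of epicardium gave 0 calls among 2 tested. Acta2 fell by 0.93 in transgenic females from 3 to 40 weeks (SE 0.20, limma adjusted p = 0.034), the single call of these lists with age. The summed signal of activated fibroblast markers was 14645 to 17926 in 3-week and 9789.8 to 19810.0 in 40-week females, so the groups overlapped. The part of these cell markers in the collagen results was not tested.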

How the data were processed

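Total RNA of mouse heart had been hybridised by the authors to Affymetrix U74Av2 arrays, 1 per sample per the labels. Each deposited value is the intensity of a probe set on a linear scale, already brought to a common level. The sources used here name neither the software nor its settings. Of 18 columns 17 were distinct. Groups, sexes and ages came from the titles. Signals under the 25th percentile of all values (44.675) were set to that floor and taken as log2. After 66 control probe sets were left out, the 7453 of 12422 probe sets with the highest mean (60%) were tested.

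Differences were tested two-sided by lmFit and eBayes of limma 3.58.1 under R 4.3.3, with 6 group means in a single fit of 17 arrays, 11 residual and 4.89 prior degrees of freedom, and Benjamini-Hochberg adjustment over all probe sets of a comparison, called at 0.05. At 3 weeks the female and male differences were averaged with equal weight. The fit was tested on simulated data. The number of arrays limits precision. Signals of different probe sets were not tested against each other. Summed marker signals add them as they are.

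Members and gene lists were chosen with earlier results of these data known. By rule, every member is accounted for, and values on each array are given for members called at 3 weeks over both sexes or with age and for the main type I, III and IV chains. Those called in females alone were added. From each gene list up to 4 called genes of smallest p are named, and genes named at an unadjusted p, and cell markers, were chosen after their values were seen. Symbols come from the platform annotation, and all 31 collagen symbols are also in a RefSeq gene table of build GRCm38.p6. Alternatives were array weights, trend with robust variance, a replicate block, the brightest 40% or no filter, signal plus 50 in place of the floor, the floor raised to the 40th percentile, scaling to quantiles or to a common median, both identical columns kept, the mean over probe sets, only the groups compared, each array left out, and the 3 doubted FVB arrays left out.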

Additional observations from a re-analysis of the deposited data

Results flagged for a closer look

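Of 40 gene and group combinations checked for an array far from the others, 6 had such an array. The combinations share the same arrays, so a rate of about 1 in 20 for independent checks cannot be set against this count. On the outlying array (FVB female 1), Col26a1 read 478.2 against 146.5 to 171.8 on the other FVB arrays, Col3a1 read 1633 against 5076 to 6166, and Col4a2 read 4712 against 7957 to 9247. Col9a1 read 175.0 on FVB male 2 against 339.2 to 375.6. Among transgenic hearts of 3 weeks, Col1a1 read 8339.7 on female 2 against 5756 to 6706, and Col6a1 read 5600.4 on male 3 against 3558 to 4115.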

How the results depend on the processing

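Over 2970 recomputed gene values, 2750 kept their direction and side of the threshold, 121 lost and 30 gained a call, 67 uncalled values changed sign and 2 called values reversed. Those 2 are Col1a2 as the mean over its probe sets, at -0.22 over both sexes and -0.24 in females, where the second probe set read against the first. The 12 calls at 3 weeks were 7 with array weights and 7 without the 3 doubted FVB arrays, against 32.8% and 36.1% of all probe sets, and ranged from 8 to 15 on leaving out each array. The 13 calls in females were 1 with array weights, 2 when only the groups compared were fitted and 4 without the doubted arrays, against 9.38%, 13.6% and 18.9% of all probe sets (34.7% as reported). Leaving out each array gave 3 (without the outlying array, 19.6% of all) to 16 (without FVB female 3, 41.4%). Over both sexes, leaving out single arrays other than FVB females gave 8 to 12 collagen calls, against 3026 to 3502 of 7453 probe sets. The 4 calls in males (29.7% of all probe sets as reported) were 3 to 4 on leaving out each array. They were 3 without FVB male 1 or transgenic male 1, against 1903 and 1902 of 7453 probe sets. Quantile normalisation gave 5 of 20, the mean over probe sets 5 of 19 and the brightest 40% 3 of 15. Calls over the whole array were then 2158 of 7453, 1882 of 5904 and 1787 of 4969. The sex difference had 1 call with both identical columns kept (2.33% of all), and 0 to 8 on leaving out each array (8 without FVB female 3, against 1492 of 7453 probe sets). The 40-week change had 7 calls with array weights and otherwise 0 in each setting, and the 13-week change had 0 in each setting. The cause of these differences was not tested. Same-numbered arrays did not deviate together (median correlation 0.054 over 40 pairs, from -0.34 to 0.47), so numbers were not taken as pairs. With the replicate block there were 12 calls at 3 weeks, 9 in females, 4 in males and 0 in the other comparisons. Over all 7453 probe sets the block gave 3328 calls at 3 weeks, 2310 in females and 2191 in males. The median of all probe sets, 0.016 in females, 0.0034 in males and 0.037 in the sex difference as deposited, became 0.18, -0.18 and 0.39 with scaling to a common median, and the last became 0.14 with quantile normalisation. Dim members limit what can be seen, since 11 of 31 were not tested.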
